A study of Mus musculus with 3 samples.

Results

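The genes described here are 10 circadian output factors and clock kinases, chosen by name: Dbp, Tef, Hlf, Nfil3, Bhlhe40, Bhlhe41, Rora, Csnk1d, Csnk1e and Ppargc1a. All 10 were found among the 52636 genes of the count table, and the rule that chose them uses no expression value. RNA-Seq was performed on live, tdTomato-positive cells isolated by fluorescence-activated cell sorting (FACS) from papain-dissociated hippocampi, in 3 biological replicates of 2 to 4 pooled mice each. The mice were C57BL/6J males of genotype Camk2a-Cre +/-, Ai14 +/-, aged 28 to 32 postnatal days. All replicates belonged to this single group, labelled CA1 pyramidal neurons, so no genotype, treatment or time comparison could be made, and the time of day of collection is not given in the sources used here. Ai14 is a reporter that makes tdTomato after Cre recombination, and Cre was expressed from the Camk2a promoter, which is active in some excitatory neurons of the forebrain. Per the study, Cre activity of this line within the hippocampus is limited to CA1 pyramidal cells.

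The molecular clock is a feedback loop in which the activators CLOCK and BMAL1 drive transcription through E-box sequences and the PER and CRY repressors shut this activity off. Output factors pass the rhythm on to other genes: the PAR bZIP proteins DBP, TEF and HLF activate through D-box sequences, NFIL3 (E4BP4) represses through the same sequences, and DEC1 and DEC2, the products of Bhlhe40 and Bhlhe41, repress through E-boxes. RORα activates Bmal1 through RORE sequences with PGC-1α, the product of Ppargc1a, as a coactivator, and the casein kinases CK1δ and CK1ε phosphorylate PER proteins and so set their stability. The clock of the hippocampus is known for rhythms that run outside the master clock of the suprachiasmatic nucleus.

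Several of these genes are paralogues, so coding stretches are shown to let their closeness, and with it the chance of sharing reads, be seen. The letters are from the sense strand in GRCm38, in lower case, with capitals at bases that differ from the gene given at the start of each set. The PAR bZIP stretch lies in exon 4 of each transcript, at the basic region and the start of the leucine zipper, at chr15:81823523-81823582 (+) in Tef, chr11:90340858-90340917 (-) in Hlf and chr7:45709722-45709781 (+) in Dbp.
Tef: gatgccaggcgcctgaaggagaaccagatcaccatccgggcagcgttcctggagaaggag
Hlf: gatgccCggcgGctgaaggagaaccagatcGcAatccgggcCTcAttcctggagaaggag
Dbp: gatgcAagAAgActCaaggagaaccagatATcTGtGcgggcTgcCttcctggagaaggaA

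The stretch of the basic helix-loop-helix domain lies in exon 3 of both genes, at chr6:108661541-108661600 (+) in Bhlhe40 and chr6:145864588-145864647 (-) in Bhlhe41.
Bhlhe40: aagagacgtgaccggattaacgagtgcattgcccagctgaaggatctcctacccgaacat
Bhlhe41: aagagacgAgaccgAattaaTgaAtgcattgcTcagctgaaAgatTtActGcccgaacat

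The casein kinase stretch holds the catalytic loop and lies at chr11:120973099-120973158 (-) in exon 4 of Csnk1d and at chr15:79426392-79426451 (-) in exon 5 of Csnk1e.
Csnk1d: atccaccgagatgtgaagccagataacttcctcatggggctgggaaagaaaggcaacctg
Csnk1e: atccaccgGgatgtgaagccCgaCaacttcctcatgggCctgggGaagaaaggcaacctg

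Of 60 bases, 53 in Hlf and 47 in Dbp were the same as in Tef, 51 in Bhlhe41 were the same as in Bhlhe40, and 55 in Csnk1e were the same as in Csnk1d. Over the whole aligned coding sequence, Csnk1e and Csnk1d were the closest pair, with 77.8% identical bases and a longest identical run of 23 bases. Tef and Hlf shared 71.0% with a longest run of 18 bases, and Bhlhe41 and Bhlhe40 shared 65.2% with a longest run of 15 bases. Nfil3 lacks the PAR domain and shared 62.2% to 63.9% with the PAR bZIP genes, with no identical run above 10 bases. No 50-base word of any of the 10 genes' transcripts occurred in a transcript of another of them, and the reads were 150 bp long.

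The replicates held 48159841, 25686630 and 15833075 assigned counts, a 3.04-fold range. TPM, the level used throughout, is the count per base of merged exon scaled to a common sum over the nuclear protein-coding genes of each replicate. A gene was called detected where its CPM, the count scaled to a common library total, reached 1 in every replicate. The CA1 pyramidal markers were detected in full (8 of 8, median 242 ± 8.08 TPM). So were the dentate granule (4 of 4), oligodendrocyte (8 of 8) and microglial (6 of 6) markers. Of the astrocyte markers 6 of 7 were detected, and of the endothelial markers 3 of 5. The microglial median was 8.78 ± 2.42 TPM. The dentate marker sum, over 4 genes, was 827 to 926 TPM. The oligodendrocyte sum was 811 to 905 TPM and the CA1 sum 1770 to 1951 TPM, each over 8 genes. The median was 112 ± 12.3 TPM for the dentate and 60.9 ± 11.7 TPM for the oligodendrocyte markers. The dentate marker C1ql2, at 621 ± 31.3 TPM, lay above every CA1 marker, of which Fibcd1 was highest at 450 ± 56.5 TPM. The other dentate markers lay between 28.4 TPM (Pdzd2) and 151 TPM (Prox1). Of 5 interneuron markers 2 were detected, with Slc32a1 at 19, 0 and 0 counts and Pvalb at 3, 1 and 3 counts. The endothelial marker sum was 11.8, 18.8 and 73.3 TPM, and thus highest in replicate 3, as were the astrocyte sum (260, 162 and 327 TPM) and the microglial sum (41.5, 54.0 and 63.5 TPM).

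All 10 output factors and kinases were detected, against 30.3% of all genes in the table and 57.0% of nuclear protein-coding genes. Their counts ran from 127 for Nfil3 to 19967 for Tef, far from the limit of 3 counts that a count of 0 would allow, and this limit covers counting error only. Their median level was 86.2, 72.6 and 78.5 TPM in the 3 replicates, a mean of 79.1 ± 6.80 TPM (SD, n = 3, as in all values that follow). In 7 of 10 the mean level lay above 37.6 TPM, the median of detected protein-coding genes, where the background is 50.0%. These are RNA levels of sorted pools, in which fewer cells that express a gene and less RNA per cell cannot be told apart. The order of mean levels was Tef, Csnk1d, Bhlhe40, Csnk1e, Hlf, Dbp, Bhlhe41, Ppargc1a, Nfil3 and Rora, and the mean of Tef was 31.2 times that of Rora.

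**Figure D1:**
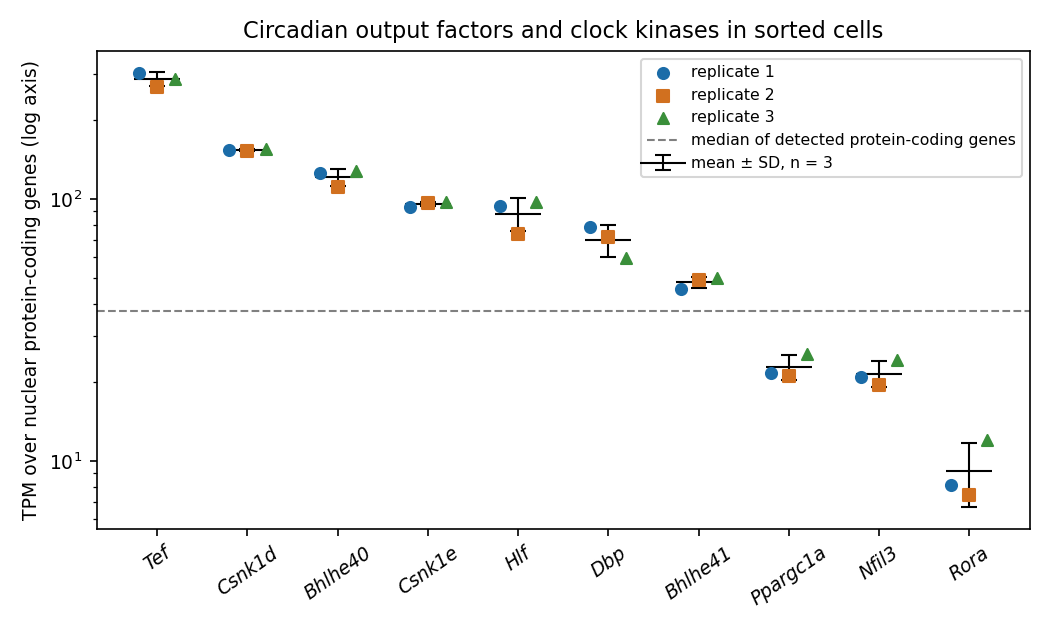
TPM over nuclear protein-coding genes (log axis) of each output factor and kinase, with a point for each of the 3 replicates, the mean and its SD, and a dashed line at the median of detected protein-coding genes. Tef stands highest at 287 TPM and Rora lowest at 9.20 TPM, and the replicates of each gene lie close together next to this range.

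Tef, an activator at D-boxes (chr15:81802421-81826861, + strand), had 304, 269 and 288 TPM, a mean of 287 ± 17.6 TPM. It was above all 9 of the others in every replicate and stood at percentile 95.4 of detected protein-coding genes. Hlf (chr11:90336536-90390895, - strand) had 93.9, 73.6 and 97.3 TPM, a mean of 88.2 ± 12.8 TPM. Its lowest value was in replicate 2. Dbp (chr7:45705088-45710203, + strand) had 78.6, 71.7 and 59.7 TPM, a mean of 70.0 ± 9.56 TPM. Its lowest value was in replicate 3, and its range overlapped that of Hlf and not that of Tef.

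Within each replicate, the log2 difference of Tef over Dbp (TPM plus a pseudocount of 1) was 1.94, 1.89 and 2.25, a mean of 2.03 ± 0.19. The same difference for Hlf over Tef was -1.70 ± 0.15. Hlf over Dbp came to 0.25, 0.04 and 0.69, a mean of 0.33 ± 0.34 that is no larger than its spread between replicates. Tef was thus above both other activators with no overlap, and the ranges of Hlf and Dbp overlapped. An exact two-sided sign-flip permutation test on 3 replicates cannot give a p below 0.25, so no difference between genes can pass 0.05 by this test, and the direction in each replicate and the overlap of ranges are given instead. Tef made up 64.5 ± 0.59% of the summed TPM of the PAR bZIP genes (446 ± 31.2 TPM), Hlf 19.8 ± 2.06% and Dbp 15.7 ± 2.04%.

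Nfil3 encodes the repressor that competes with the PAR bZIP activators for D-boxes (chr13:52967209-52981073, - strand). It had 21.0, 19.6 and 24.3 TPM, a mean of 21.6 ± 2.44 TPM at percentile 33.3, and was below each of the D-box activators in every replicate with no overlap. The log2 difference of Nfil3 was -3.68 ± 0.15 against Tef, -1.98 ± 0.13 against Hlf and -1.65 ± 0.33 against Dbp. Its counts of 354, 175 and 127 were the smallest of the 10 genes. Of the summed TPM of the PAR bZIP genes and Nfil3 (467 ± 31.9 TPM), Nfil3 made up 4.63 ± 0.50%.

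Bhlhe40, encoding the E-box repressor DEC1 (chr6:108660629-108666925, + strand), had 126, 112 and 128 TPM, a mean of 122 ± 8.96 TPM. Bhlhe41, encoding its paralogue DEC2 (chr6:145858243-145865558, - strand), had 45.6, 49.2 and 49.9 TPM, a mean of 48.2 ± 2.31 TPM. The paralogues did not overlap, and Bhlhe41 was the lower of the pair in all 3 replicates, with a log2 difference of -1.45, -1.17 and -1.34 and a mean of -1.32 ± 0.14. Bhlhe40 made up 71.6 ± 2.04% of their sum.

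The kinase gene Csnk1d (chr11:120961749-120991330, - strand) had 155, 153 and 156 TPM, a mean of 155 ± 1.35 TPM at percentile 88.6. Csnk1e (chr15:79417856-79443919, - strand) had 93.8, 96.7 and 97.6 TPM, a mean of 96.0 ± 2.02 TPM. Csnk1e was lower than Csnk1d in every replicate by nearly the same amount, with a log2 difference of -0.71, -0.66 and -0.67 and a mean of -0.68 ± 0.03. With the length of the longest transcript, Csnk1e came to 149.6 TPM and this difference to -0.12. Among the 6 casein kinase 1 genes (674 ± 17.0 TPM together), Csnk1d held 23.0 ± 0.42% and Csnk1e 14.3 ± 0.24% of the sum. Csnk1a1, which encodes CK1α, held the largest share of this family at 29.2 ± 0.77%.

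Rora, encoding the RORE-binding activator RORα (chr9:68653786-69388246, + strand), had 8.11, 7.41 and 12.1 TPM, a mean of 9.20 ± 2.51 TPM at percentile 16.4. It was the lowest of the 10 genes in every replicate and was highest in replicate 3. The sums of the astrocyte, endothelial and microglial markers were highest in the same replicate, and their part in this value of Rora was not tested. Without replicate 3 the coefficient of variation (CV, the SD as a percent of the mean) of the normalized counts of Rora was 7.89%, against 23.5% with all 3 replicates. Without replicate 1 it was 30.3%. Of the sum of Rora and its paralogue Rorb (10.7 ± 2.81 TPM), Rora made up 85.9 ± 1.09%, and Rorb had 1.50 ± 0.31 TPM.

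Ppargc1a, encoding a coactivator of RORα that also drives mitochondrial genes (chr5:51454250-51567726, - strand), had 21.7, 21.2 and 25.8 TPM, a mean of 22.9 ± 2.48 TPM. Its range overlapped that of Nfil3, its neighbour in the order. It made up 17.1 ± 2.41% of the summed TPM of the PGC-1 family (134 ± 4.06 TPM), where Ppargc1b held 59.9 ± 2.40% and Pprc1 22.9 ± 0.56%. Ppargc1b was thus the most abundant coactivator RNA of this family, at 80.4 ± 5.59 TPM.

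**Figure D2:**
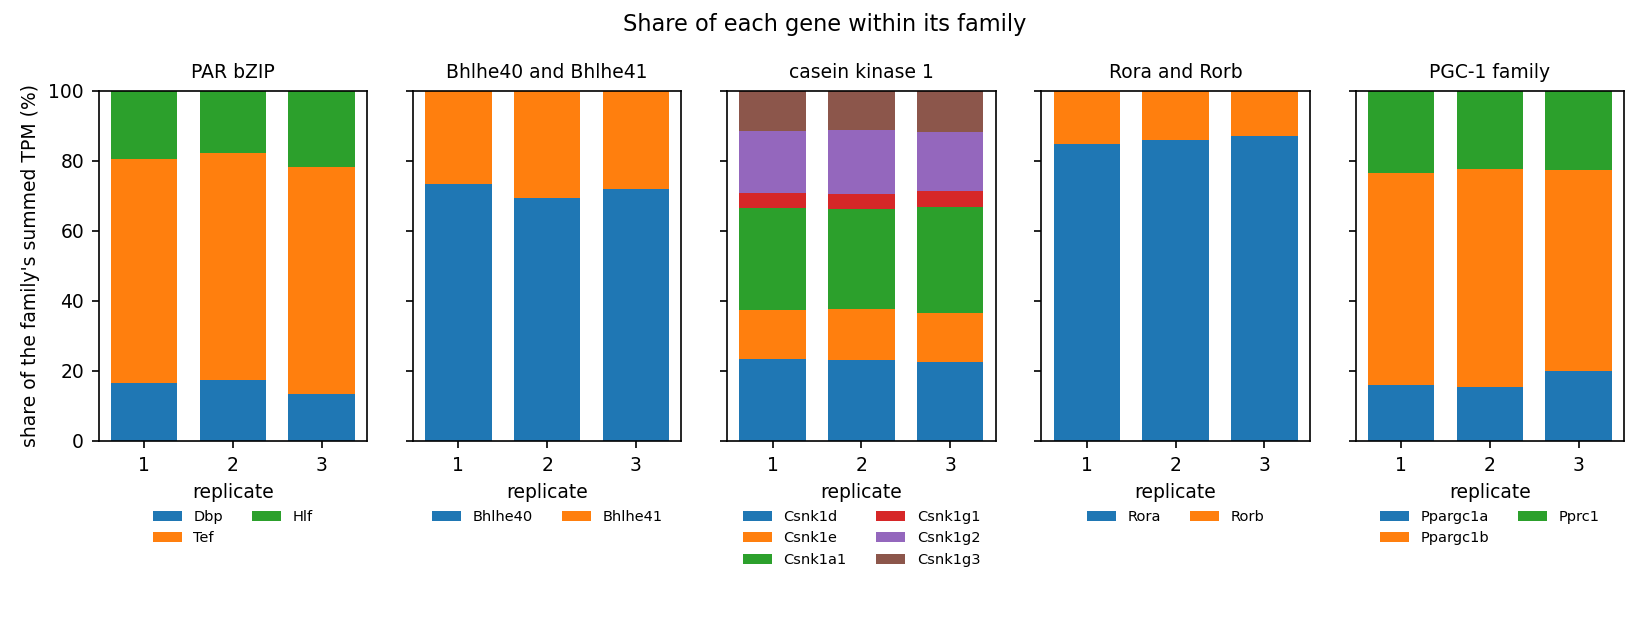
Share of the summed TPM of each gene family (percent), stacked by gene, with a bar for each of the 3 replicates. As means over replicates, Tef holds 64.5% of the PAR bZIP sum, Bhlhe40 71.6% of the sum of the DEC genes, and Ppargc1a 17.1% of the PGC-1 family sum.

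Of the 9 pairs of neighbours in the order of levels, 3 had ranges that overlapped: Csnk1e with Hlf, Hlf with Dbp, and Ppargc1a with Nfil3. Csnk1e exceeded Hlf in 2 of 3 replicates, with a log2 difference of 0.13 ± 0.22. Ppargc1a exceeded Nfil3 in all 3 replicates by 0.08 ± 0.03 on the log2 scale. The order was the same in replicates 2 and 3 and after leaving out any single replicate, and in replicate 1 Hlf and Csnk1e changed places. The order depended on the length by which counts were divided: with the longest transcript in place of the merged exons, Csnk1e stood above Bhlhe40 and Dbp above Hlf, and Hlf over Dbp became -0.13.

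The spread between replicates was compared on counts normalized by median-of-ratios size factors. The median CV of the 10 genes was 7.71%, against 8.75% over detected protein-coding genes, and 8 of 10 had a CV of at most 15%, where the background is 79.2%. Csnk1e (2.24%), Bhlhe41 (2.78%) and Csnk1d (3.19%) varied least. For Csnk1e and Bhlhe41 this was 1.13 and 1.02 times the CV that counting error alone would give. Rora (23.5%) and Dbp (17.2%) varied most, at 5.29 and 4.88 times their counting error. With 3 replicates, leaving out the one farthest from the others always lowers the SD. Without replicate 3 the CV of Dbp was 8.03%, and without replicate 2 it was 24.4%. For Hlf (13.8%) it was 2.71% without replicate 2 and 18.7% without replicate 3. Tef, with the most counts, had a CV of 8.10%, which was 7.75 times its counting error. It was 1.06% without replicate 1 and 10.2% without replicate 3. Leaving out replicate 2 gave a CV of 5.27% for Nfil3 (8.24% with all replicates), 4.21% for Bhlhe40 (7.21%) and 1.17% for Bhlhe41. Leaving out replicate 3 gave 2.06% for Csnk1d, 0.655% for Csnk1e and 3.24% for Ppargc1a (7.31%). For each of these genes, the omission named here is the one that gave the lowest CV. Leaving out another replicate raised the CV of each, as to 11.7% for Nfil3 without replicate 1. The remaining omission also lowered it for some, as to 6.42% for Nfil3 without replicate 3.

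**Figure D3:**
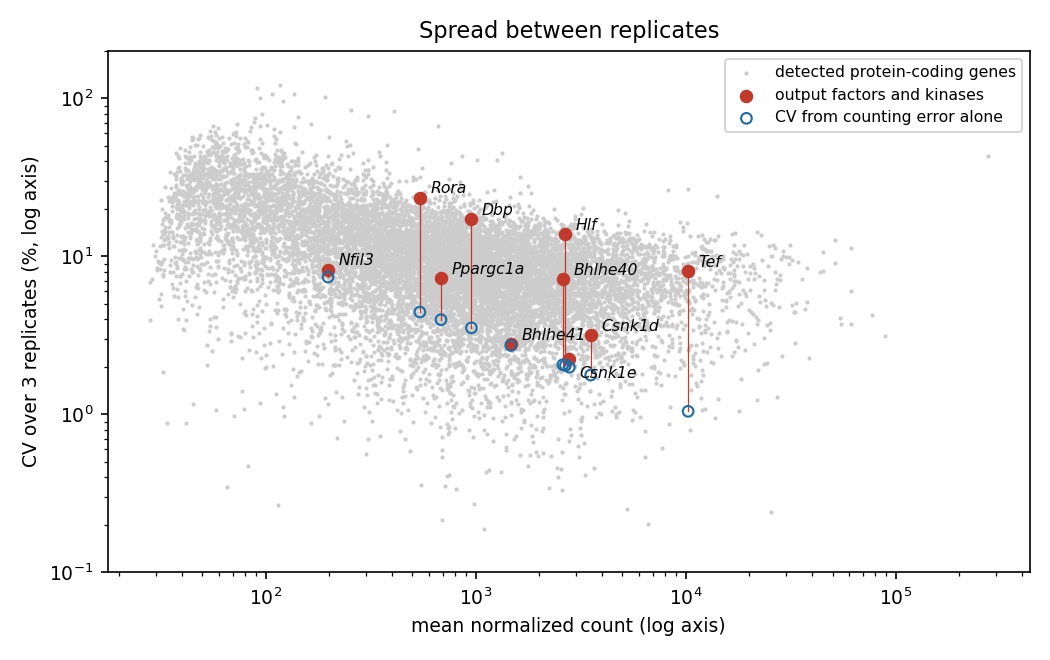
CV of normalized counts over 3 replicates (percent, log axis) against mean normalized count (log axis), for each detected nuclear protein-coding gene (grey) and the 10 output factors and kinases (red, named), with open circles at the CV that counting error alone would give. Rora at 23.5% and Dbp at 17.2% lie above the median CV of 8.75%, and Csnk1e at 2.24% is the lowest of the named genes.

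The replicates of high and low values were counted over the 10 genes, beside the same over detected protein-coding genes. The highest normalized count was in replicate 1 for 5 of the 10 genes (41.9% of detected protein-coding genes), in replicate 2 for 2 (27.5%) and in replicate 3 for 3 (30.6%). The lowest was in replicate 1 for 1 of the 10 genes (20.4%), in replicate 2 for 6 (33.9%) and in replicate 3 for 3 (45.7%). The counts of the 10 genes were not tested against these shares. Dbp was lowest in replicate 3 by normalized count and by TPM. Core clock genes that are also known to be driven through E-boxes were read beside it, in TPM. Nr1d1 (REV-ERBα, a repressor at ROREs) had 142, 123 and 115 TPM, Per1 had 118, 119 and 107 TPM and Per2 had 59.6, 64.4 and 59.4 TPM, each lowest in replicate 3. Nr1d2 had 84.4, 77.1 and 95.1 TPM, Per3 had 78.3, 76.0 and 80.2 TPM and Ciart had 40.7, 45.3 and 48.7 TPM, each highest in replicate 3. By normalized count Per3 was instead highest in replicate 1, at 3526, 3349 and 3357. Arntl, which encodes BMAL1, had 29.1, 33.7 and 35.7 TPM and was also highest in replicate 3. Also of the core clock list, Cry1 had 15.3, 9.08 and 14.0 TPM and Cry2 had 134, 134 and 135 TPM. The lowest TPM was not in the same replicate for all of these genes, and the reason was not tested. With 3 replicates of 1 condition these are levels side by side, and no relation between genes was tested.

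The median of the output factors and kinases was 79.1 ± 6.80 TPM, against 58.3 ± 1.79 TPM for the 12 core clock genes read here, all of which were detected. Cry2, a repressor of CLOCK and BMAL1, was the highest core clock gene at 134 ± 0.827 TPM, which is below Tef and Csnk1d. The place below Csnk1d depended on the length: with the longest transcript Cry2 came to 164.5 TPM and Csnk1d to 163.1 TPM. The other clock kinases and ubiquitin ligases, which phosphorylate clock proteins or mark them for degradation, were all detected (13 of 13) with a median of 95.0 ± 4.59 TPM. Their range ran from 2.18 ± 0.632 TPM for Fbxl21 to 196 ± 10.1 TPM for Csnk1a1, and Csnk1d and Csnk1e fell inside it. Of the PGC-1 family and nuclear partners other than Ppargc1a, 9 of 11 were detected, and their median of 22.3 ± 1.11 TPM was close to the 22.9 TPM of Ppargc1a. Esrra, a nuclear receptor partner of PGC-1α, was the highest of them at 106 ± 6.16 TPM and Ppara the lowest, at 11, 5 and 1 counts.

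Bhlhe40 and Nfil3 also respond to stimulation in several cell types, so immediate early genes were read beside them. All 9 were detected, with a median of 42.3 ± 1.38 TPM. Egr1 (260 ± 37.0 TPM), Arc (249 ± 19.3 TPM), Nr4a1 (193 ± 21.2 TPM) and Junb (154 ± 27.5 TPM) lay above Bhlhe40, and Fos (21.3 ± 5.77 TPM) lay beside Nfil3. Npas4 (42.3 ± 1.38 TPM) lay between Bhlhe40 and Nfil3. Ier2 (16.5 ± 1.08 TPM), Dusp1 (14.3 ± 0.749 TPM) and Fosb (4.61 ± 0.664 TPM) had means below that of Nfil3. With the longest transcript, Junb came to 151 TPM and Nr4a1 to 144 TPM, beside 142 TPM for Bhlhe40.

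**Figure D4:**
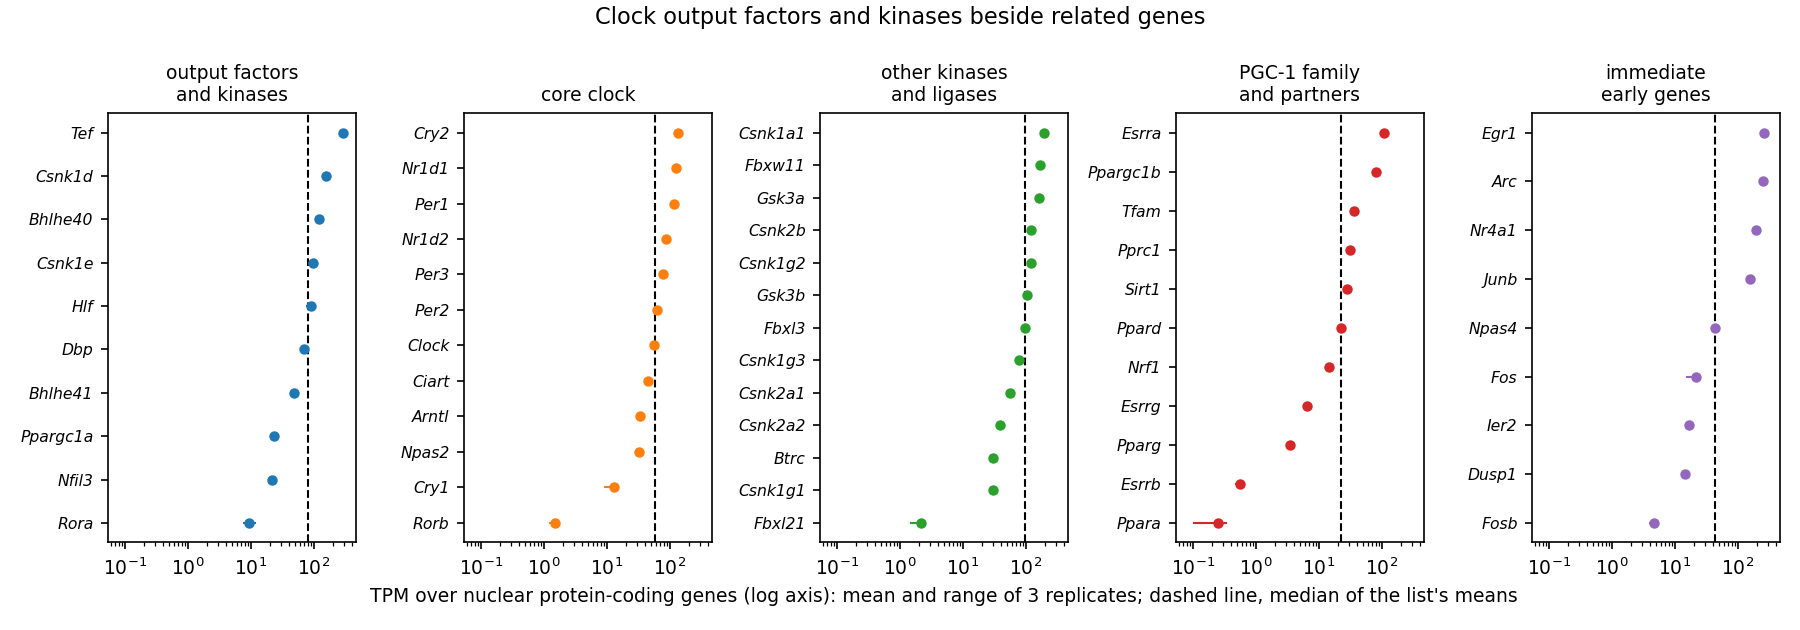
Mean TPM over nuclear protein-coding genes (log axis) and range of 3 replicates for each gene of the output factors and kinases and of 4 related lists, with a dashed line at the median of each list. The medians run from 22.3 TPM for the PGC-1 family and partners to 95.0 TPM for the other kinases and ligases, and the mean of Tef, 287 TPM, lies above the mean of every gene of the other lists, with a range that overlaps that of Egr1.

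Counting by strand is not stated, so reads from exons shared with a gene on the opposite strand cannot be assigned. Dbp shared 539 bases, 18.0% of its merged exons, with Sphk2, a sphingosine kinase gene that had 1581, 828 and 441 counts. Bhlhe41 shared 1280 bases, 19.0%, with the unclassified Gm43909, which had 77, 41 and 34 counts. Tef, Bhlhe40, Rora, Csnk1d and Csnk1e each shared between 0.63% and 4.17% with an antisense noncoding gene, and Hlf, Nfil3 and Ppargc1a shared none. With shared bases left out of the length and the counts unchanged, Dbp had 85.4 ± 11.7 TPM and Bhlhe41 59.6 ± 2.85 TPM, and Hlf over Dbp was 0.05 on the log2 scale.

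Promoter windows from RefSeq (GRCm38.p6, 250 bases before to 50 after each start) were matched for 8 of the 10 genes, 12 windows in all. Bhlhe40 and Csnk1d were not matched. The motifs searched on both strands were the E-box CACGTG, the E-box variant CACGTT, the D-box (TTATGTAA, TTACGTAA or TTATGCAA), the RORE TAGGTCA and the CRE TGACGTCA. The E-box was in 3 windows of these genes, 1 of Bhlhe41 and both of Tef, and in 7.15% of all 32851 windows. The RORE was in the window of Nfil3 (2.61% of all windows) and the CRE in that of Hlf (1.79% of all windows). The E-box variant (4.68% of all windows) and the D-box (1.78%) were in none of the 12. Of the motifs found, the E-box and the RORE are among the sequences named above for clock factors, and the CRE is not. The sites are printed with the motif in capitals, and the Nfil3 site reads as the reverse complement of the RORE. They lie at chr6:145865556-145865585 (-) for Bhlhe41, chr15:81802534-81802563 (+) and chr15:81811264-81811293 (+) for Tef, chr13:52981033-52981062 (-) for Nfil3 and chr11:90390908-90390937 (-) for Hlf. A match describes letters only, and these RNA data do not bear on whether a factor binds there.
Bhlhe41 E-box: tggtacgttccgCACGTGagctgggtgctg
Tef E-box, upstream start: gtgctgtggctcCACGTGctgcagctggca
Tef E-box, downstream start: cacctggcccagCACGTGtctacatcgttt
Nfil3 RORE: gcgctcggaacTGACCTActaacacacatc
Hlf CRE: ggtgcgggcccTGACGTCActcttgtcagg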

How the data were processed

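Per the labels, hippocampal cells were sorted, poly(A) RNA was prepared with TruSeq, and 150 bp paired-end reads were sequenced. The authors deposited whole-number counts per gene with merged exon lengths. STAR and featureCounts, with the builds mm10 and GRCm38, are named in the submitters' processing notes. Versions, strand, multimapping and the counting of reads or fragments are not given in the sources used here. Of 52636 genes, 52489 were named by GENCODE vM21 and 21883 were nuclear protein-coding.

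TPM was computed over nuclear protein-coding genes, since Gm23935 alone took 32.7%, 48.3% and 40.5% of all-feature TPM. Mitochondrial genes held 10.6%, 7.09% and 9.14% of counts. Median-of-ratios size factors were 1.78, 0.963 and 0.592. Detection required a CPM of 1 or more in all replicates. Differences between genes were log2(TPM + 1) within a replicate, with an exact sign-flip permutation test. For a gene of median length, 3 counts came to 0.0796, 0.150 and 0.257 TPM.

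Named genes were the 10 genes, the fixed lists, their paralogues and overlapping features. A gene of the core clock list is not reported here. The genes were named by role, and they and the lists were chosen with earlier results of these data known. Replicates were separate pools of mice. Calculations were tested on simulated data. Alternatives were other lengths, all-feature TPM, CPM, edgeR 4.0.16 TMM factors, a pseudocount of 0.1, other detection filters and leaving out each replicate. Coding sequences were aligned with Biopython 1.88. Python 3.11.15, numpy 2.4.6, pandas 2.3.3, scipy 1.17.1, matplotlib 3.10.9 and R 4.3.3 were used.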

Additional observations from a re-analysis of the deposited data

How the results depend on the processing

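Of 189 alternative values of 31 results, 138 moved by less than their limit, 50 moved beyond it and 1 reversed. The reversal was Hlf over Dbp, at -0.13 on the log2 scale with the length of the longest transcript in place of merged exons. That length also moved Hlf over Tef to -2.29, Nfil3 over Dbp to -2.33, Nfil3 over Tef to -4.49, Nfil3 over Hlf to -2.20, Bhlhe41 over Bhlhe40 to -1.77 and Csnk1e over Csnk1d to -0.12. CPM, which takes no account of length, gave Tef over Dbp 3.40, Hlf over Dbp 1.46, Hlf over Tef -1.94, Nfil3 over Dbp -2.11, Nfil3 over Tef -5.51, Nfil3 over Hlf -3.58, Bhlhe41 over Bhlhe40 -0.81 and Csnk1e over Csnk1d -0.33. A length without exon bases shared with other features, an alternative chosen after seeing the data, gave Tef over Dbp 1.78, Bhlhe41 over Bhlhe40 -1.05 and Csnk1e over Csnk1d -0.64. TPM over all features gave a median of the 10 genes of 25.1 TPM, against 79.1 TPM over nuclear protein-coding genes. The pseudocount of 0.1 moved none of 8 differences beyond its spread. Leaving out any single replicate moved none of the 10 levels beyond its spread, but with 3 replicates this could not have come out otherwise. The same holds for the differences, so these values, counted among the 138, are no test of stability. The counts of 10 detected genes and 7 above the median were within 1.5 times their value under each of 10 alternatives. The count above the median was 9 with no filter beyond a count in any replicate, and 7 otherwise. Leaving out a replicate could not lower the count of detected genes. Neither could a filter of 10 counts, since a CPM of 1 is more than 10 counts in each replicate. No paired analysis was possible because all replicates belong to 1 group, with no second group to block by replicate number. Counting error alone would give Nfil3, with the fewest counts, a CV of 7.40%, beside the 8.24% measured.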

Other observations

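Ppargc1a overlapped 4 unclassified noncoding features that shared none of its exon bases. Gm42614, within the gene's span on the same strand, had 83, 64 and 25 counts. Gm43605, also on the same strand, had 38, 31 and 14 counts. The antisense partner of Csnk1d, Gm28192, had 282, 162 and 96 counts, more than the antisense partners of Tef (Gm17597, 85, 37 and 28 counts), Csnk1e (Gm16059, 140, 66 and 33 counts) and Bhlhe40 (0610040F04Rik, 52, 25 and 17 counts) in every replicate. Counting by strand is not stated, so counts of these antisense features cannot be told from reads of the genes they overlap.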
